A study of Mus musculus with 4 samples.

Results

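The genes described here encode the protein parts of the small nuclear ribonucleoproteins (snRNPs) of the spliceosome and the serine- and arginine-rich (SR) splicing factors. They were taken from the expression table by symbol: the Snrp genes, the Sf3a and Sf3b genes, Lsm1 to Lsm8 and the numbered Srsf genes, 40 of the 24784 genes listed. Polyadenylated RNA had been sequenced from macrophages that were flow-sorted out of liver tumours. The tumours grew in male mice, 6 to 8 weeks old, from Hepa 1-6, a hepatoma cell line of mouse origin. Of the 4 libraries 2 are labelled OXCT1mKO and 2 control, and both groups carried tumours. OXCT1mKO names Oxct1, the mitochondrial enzyme that activates ketone bodies for use as fuel, as the gene removed. The sources used here do not give the driver of the deletion, the cells it reached or any pooling of animals. Separate animals are not stated either, so each p-value reflects the spread among 4 libraries, which may be technical.

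The spliceosome removes introns from pre-mRNA. Its U1, U2, U4 and U5 particles each carry a ring of Sm proteins around the small nuclear RNA, while U6 carries the related ring of Lsm2 to Lsm8. U1 and U2 mark the ends of the intron with the help of their own proteins, the SF3A and SF3B complexes hold U2 on the branch point, and SR proteins bind exons and recruit these particles. Every cell that splices needs the core of this machinery, though not each of these genes. Demand is known to be high in cells that grow and divide.

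Values are RPKM, reads scaled to gene length and to the size of the library, as the authors deposited them. Oxct1 itself had 14.7 and 15.4 RPKM in the OXCT1mKO libraries, against 19.3 and 20.3 RPKM in the control libraries (log2 fold change -0.37 ± 0.09 SE, limma adjusted p 0.0346). That call was lost when OXCT1mKO 1, OXCT1mKO 2 or control 2 was left out (adjusted p 0.225, 0.162 and 0.0559), without a filter on low genes (0.0504), with equal library sums (0.0627) and with the replicate number as a block (0.0577). Equal library sums here means equal sums over genes other than globin. RPKM sums over all genes were 325034 to 327811 in OXCT1mKO and 355951 to 377575 in control, and the read depth is unknown. The 12 macrophage marker genes were above 0 in every library. Their levels summed to 1773 to 1957 RPKM in OXCT1mKO and 1643 to 2234 RPKM in control. The control sums include 688 and 744 RPKM of Lyz2, which was far lower in OXCT1mKO. These levels do not establish the identity of the sorted cells, since markers of other cells were found in both groups. Endothelial markers summed to 1203 to 1336 RPKM in OXCT1mKO and 685 to 826 RPKM in control, epithelial markers to 506 to 570 RPKM in OXCT1mKO and 621 to 966 RPKM in control, and hepatocyte markers to 473 to 685 RPKM in OXCT1mKO and 501 to 582 RPKM in control. Lyz2, a lysozyme gene used as a myeloid marker, was the macrophage marker that fell, with 8.76 and 6.52 RPKM in OXCT1mKO, against 688 and 744 RPKM in control (log2 fold change -6.39 ± 0.15, limma adjusted p 0.00252). Control 1 stood apart by its globin transcripts, which made up 8.81% of its RPKM sum against 0.132% to 0.327% in the other libraries. In bulk samples, fewer cells of a type and less RNA per cell cannot be told apart.

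Most of the spliceosome genes that passed the test were lower in the OXCT1mKO libraries. Of 38 members with a mean of at least 1 RPKM, 21 fell and 1 rose past a limma adjusted p of 0.05, and 35 had a negative fold change. Over all 12523 genes tested, 16.4% passed downward and 16.4% upward, 32.8% in all. The members' median log2 fold change was -0.46, beside 0.0045 over all genes tested. In 32 members both OXCT1mKO libraries lay below both control libraries, a pattern shown by 37.0% of all genes tested. In 2 members (Sf3b1 and Srsf4) they lay above, as in 37.6% of all genes. The 21 genes that fell had OXCT1mKO means of 0.42 to 0.792 of the control mean. The 38 members were above 1 RPKM in each of the 4 libraries, the lowest value being 1.62 RPKM for Lsm5. The remaining pair was near 0: Snrpn, an imprinted Sm gene used mainly in neurons, had 0.268 and 0.0723 RPKM in OXCT1mKO and 0.164 and 0.0107 RPKM in control, and Srsf12 had 0.132 and 0 RPKM in OXCT1mKO and 0.0654 and 0.114 RPKM in control. The members' levels summed to 1497 and 1450.5 RPKM in OXCT1mKO, against 2185 and 2047 RPKM in control, a ratio of 0.697. Without OXCT1mKO 1 or OXCT1mKO 2, in fits where the lone library was taken to vary like the controls, the members lost their calls. Nearly all other genes of the table lost theirs too. In those fits the members' median log2 fold change was -0.47 and -0.45. With library sums outside globin set equal, 19 members fell and 1 rose. Over all genes 2718 then rose (21.7%) and 1479 fell (11.8%), in place of 2058 and 2052. Under the other alternatives that changed a member's call, the number of members that fell stood beside these shares of all genes: 17 beside 5.89% without a filter on low genes, 23 beside 18.1% with median-ratio scaling, 20 beside 15.1% without the variance trend, 20 beside 13.9% with the replicate number as a block, 21 beside 14.1% without control 1 and 19 beside 16.4% without control 2. Without OXCT1mKO 1 or OXCT1mKO 2 the share was 0.00799%.

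**Figure D1:**
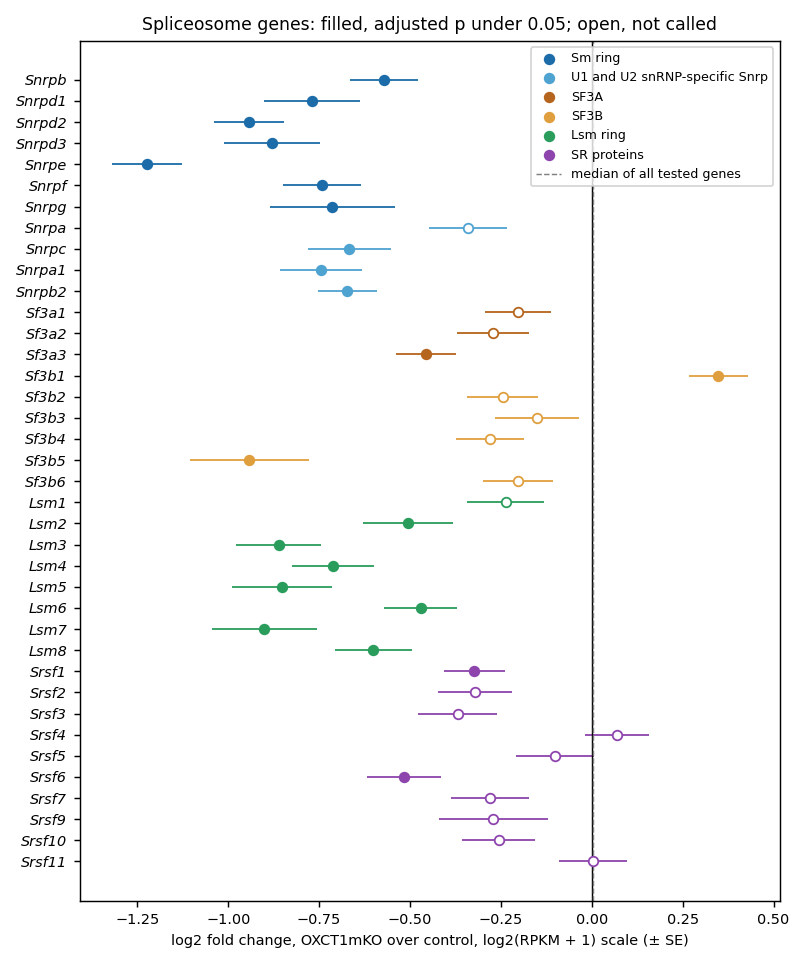
Log2 fold change of OXCT1mKO over control for the 38 tested members, with the standard error as bars and colours for the parts of the spliceosome. Filled points passed a limma adjusted p of 0.05; Snrpe lies furthest to the left (-1.22) and Sf3b1 is the filled point right of 0 (0.35).

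The 250 bases before the start of transcription were available for 34 members in the RefSeq promoter table (build GRCm38.p6). They were searched on both strands for 7 short motifs, namely ETS (CCGGAAG), SP1 (GGGCGG), the promoter box spelled CCAAT, the E-box (CACGTG), CRE (TGACGTCA), NRF1 and YY1. The ETS letters were in 14 of 34 members (41.2%), beside 14% of the 9578 promoters of tested genes and 7.05% of all 27025 promoters. The SP1 letters were in 67.6% of members and 58.2% of promoters of tested genes, and CCAAT in 32.4% and 36.4%. The E-box letters were in 1 member (2.94%, beside 8.42% of promoters of tested genes), CRE in 2 (5.88%, beside 2.59%), and NRF1 and YY1 in 0 (beside 1.65% and 0.658%). Of the tested members with the ETS letters 5 of 14 fell (median log2 fold change -0.26), and of those without 12 of 18 fell and 1 rose (median -0.51). A match is a run of letters and does not show that a factor was bound. The promoters of 4 members that the results turn on are printed below 5′ to 3′, ending at the base before the start, with the matched letters in capitals, none of which overlap another match. They are those of Snrpe, which had the largest fall of all members (chr1:133610281-133610530 on the minus strand), Snrpb2 of the U2 snRNP (chr2:143062819-143063068 on the plus strand), Lsm5 of the U6 ring (chr6:56704700-56704949 on the minus strand) and Sf3b1, the member that rose (chr1:55027479-55027728 on the minus strand). Snrpe holds none of the 7 motifs, Snrpb2 holds the ETS letters at 2 places beside SP1, Lsm5 holds ETS, CCAAT and SP1, and Sf3b1 holds the SP1 letters at 2 places.
Snrpe: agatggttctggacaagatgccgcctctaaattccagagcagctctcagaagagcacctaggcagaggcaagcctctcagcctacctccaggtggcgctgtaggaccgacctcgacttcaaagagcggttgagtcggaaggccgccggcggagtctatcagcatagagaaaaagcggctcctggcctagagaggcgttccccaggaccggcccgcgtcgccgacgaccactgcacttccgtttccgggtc
Snrpb2: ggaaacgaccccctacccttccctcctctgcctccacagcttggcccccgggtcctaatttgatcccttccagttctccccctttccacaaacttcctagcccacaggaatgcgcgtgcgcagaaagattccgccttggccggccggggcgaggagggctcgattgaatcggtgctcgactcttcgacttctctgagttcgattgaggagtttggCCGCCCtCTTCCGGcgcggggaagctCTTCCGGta
Lsm5: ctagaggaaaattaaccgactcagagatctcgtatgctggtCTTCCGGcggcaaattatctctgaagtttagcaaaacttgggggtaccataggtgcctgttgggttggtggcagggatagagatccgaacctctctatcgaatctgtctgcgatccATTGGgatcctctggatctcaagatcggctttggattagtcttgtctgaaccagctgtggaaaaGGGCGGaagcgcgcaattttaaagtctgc
Sf3b1: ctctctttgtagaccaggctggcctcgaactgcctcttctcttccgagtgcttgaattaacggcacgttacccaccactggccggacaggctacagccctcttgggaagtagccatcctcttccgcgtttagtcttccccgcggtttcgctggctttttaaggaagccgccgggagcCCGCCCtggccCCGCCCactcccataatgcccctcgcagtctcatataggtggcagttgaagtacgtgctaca

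The Sm ring genes had the lowest median of the 6 groups of members. The 7 tested Sm genes all fell, beside 16.4% of all genes tested. The Sm median log2 fold change was -0.77, with limma adjusted p of 0.0127 to 0.0363. The summed levels of the Sm genes were 0.567 of control. Snrpe had 31.0 and 32.9 RPKM in OXCT1mKO, against 79.9 and 72.2 RPKM in control (32.0 ± 1.29 against 76.1 ± 5.50, SD, n = 2 each). Its log2 fold change was -1.22 ± 0.10 (SE, limma adjusted p 0.0127), so the OXCT1mKO level was 0.42 of control. The SmE protein it encodes sits beside SmF and SmG in the ring. Snrpd2 had 81.0 and 79.5 RPKM in OXCT1mKO, against 147 and 163 RPKM in control. Snrpd3 had 80.0 and 86.4 RPKM in OXCT1mKO, against 171 and 138 RPKM in control. Both encode D-type Sm proteins, and both OXCT1mKO libraries lay below both controls, as in 37.0% of all genes tested. The log2 fold changes of Snrpd2 and Snrpd3 were -0.94 ± 0.10 and -0.88 ± 0.13. Snrpf, for SmF, had 31.2 and 27.9 RPKM in OXCT1mKO, against 52.9 and 47.3 RPKM in control (-0.74 ± 0.11). The remaining Sm genes changed by -0.57 (Snrpb), -0.71 (Snrpg) and -0.77 (Snrpd1). Snrpb was the most abundant, at 135 and 140 RPKM in OXCT1mKO and 211 and 199 RPKM in control. Snrpg, the least abundant tested Sm gene, had 18.4 and 16.9 RPKM in OXCT1mKO and differed between the controls, at 25.1 and 34.8 RPKM. Its fold change was -0.94 without control 1 and -0.49 without control 2. Its call was lost without the filter on low genes (adjusted p 0.0786).

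Genes for proteins particular to U1 and U2 fell too. Of 4 genes, 3 fell, beside 16.4% of all genes tested, and the median log2 fold change of the 4 was -0.67. Snrpb2, for the U2 B″ protein that binds U2 RNA, had 29.3 and 29.8 RPKM in OXCT1mKO, against 47.7 and 47.7 RPKM in control (-0.67 ± 0.08, limma adjusted p 0.0127). Replicates agreed closely and the groups lay far apart. Snrpa1, for its partner U2 A′, had 20.6 and 19.7 RPKM in OXCT1mKO, against 37.4 and 31.6 RPKM in control (-0.74 ± 0.11, adjusted p 0.0150). Snrpc, for the U1 C protein that stabilises pairing with the 5′ splice site, had 36.8 and 38.2 RPKM in OXCT1mKO, against 65.6 and 55.2 RPKM in control (-0.67 ± 0.11, adjusted p 0.0182). Snrpa, for the U1 A protein that binds a loop of U1 RNA, had 33.0 and 31.4 RPKM in OXCT1mKO, against 38.1 and 44.2 RPKM in control. Both OXCT1mKO libraries lay below both controls, as in 37.0% of all genes tested. The fold change of -0.34 ± 0.11 missed the threshold (limma adjusted p 0.0680). It passed with median-ratio scaling (0.0430) or without control 1 (0.0379).

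Of the 8 Lsm genes 7 fell, beside 16.4% of all genes tested. The median log2 fold change of the Lsm genes was -0.66. Lsm7, of both the nuclear and the cytoplasmic ring, had 10.8 and 13.8 RPKM in OXCT1mKO, against 25.3 and 22.2 RPKM in control (-0.90 ± 0.14, limma adjusted p 0.0163). Lsm3 had 21.6 and 21.99 RPKM in OXCT1mKO, against 44.3 and 36.8 RPKM in control (-0.86 ± 0.12, adjusted p 0.0131). Lsm5 was the least abundant tested member, at 1.62 and 1.97 RPKM in OXCT1mKO and 3.76 and 4.32 RPKM in control (-0.85 ± 0.14, adjusted p 0.0164). In these genes, shared by both rings, both OXCT1mKO libraries lay below both controls, as in 37.0% of all genes tested. Lsm4 had 58.4 and 55.5 RPKM in OXCT1mKO, against 102 and 86.6 RPKM in control (-0.71 ± 0.11, adjusted p 0.0158). One subunit tells the rings apart: Lsm8 belongs to the nuclear ring on U6, and Lsm1 takes its place in the cytoplasmic ring that starts mRNA decapping. Lsm8 had 33.6 and 31.6 RPKM in OXCT1mKO, against 53.4 and 46.6 RPKM in control, and fell (-0.60 ± 0.10, adjusted p 0.0188). Lsm1 had 5.71 and 5.05 RPKM in OXCT1mKO, against 6.53 and 6.49 RPKM in control, and was not called (-0.24 ± 0.11, adjusted p 0.144). The difference between the fold changes of Lsm8 and Lsm1 was not tested. Lsm6 (-0.47 ± 0.10) and Lsm2 (-0.51 ± 0.12) fell too. Lsm2 lost its call without control 1 (adjusted p 0.0675) or control 2 (0.0799), with equal library sums (0.0577) and without the filter (0.0709), where Lsm6 lost its call as well (0.0568).

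**Figure D2:**
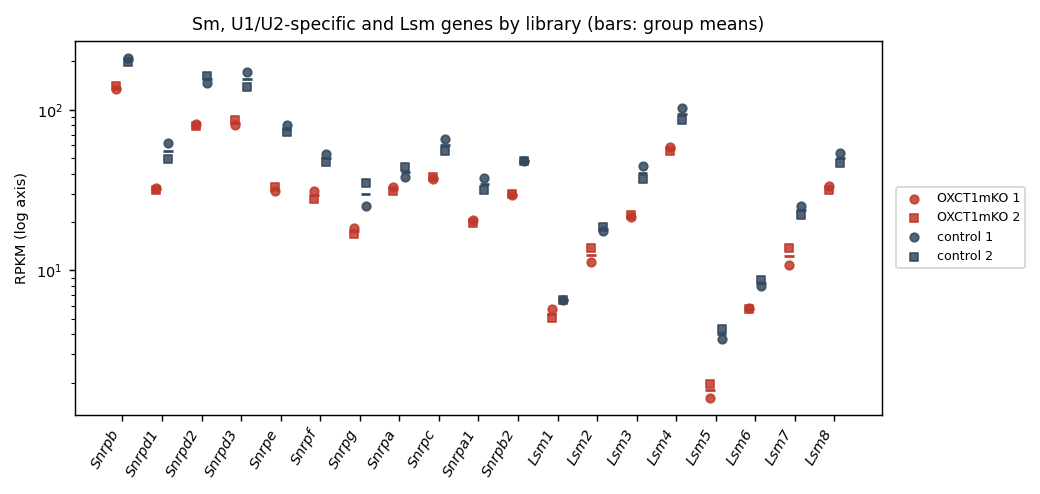
RPKM in each library (log axis) of the Sm, U1- and U2-specific and Lsm genes, with OXCT1mKO left of control for each gene and bars at the group means. In all 19 genes both OXCT1mKO points lie below both control points, a pattern shown by 37.0% of all genes tested. The OXCT1mKO means run from Lsm5 near 1.79 RPKM to Snrpb near 137 RPKM.

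Calls among the SF3 genes went in both directions. Among 9 genes, Sf3a3 and Sf3b5 fell, Sf3b1 rose and 6 were not called. These counts are near the shares of all tested genes, of which 16.4% fell and 16.4% rose. The median log2 fold change was -0.27 for SF3A and -0.22 for SF3B. Sf3b5, a small subunit of SF3B, had 52.7 and 52.4 RPKM in OXCT1mKO, against 119 and 87.2 RPKM in control (-0.94 ± 0.16, limma adjusted p 0.0188). The controls differed from one another, and the fold change was -0.72 without control 1 and -1.16 without control 2. Sf3b1, the large scaffold of SF3B that closes around the branch point and is mutated in some blood cancers, went the other way. It had 66.1 and 64.4 RPKM in OXCT1mKO, against 51.0 and 51.1 RPKM in control (65.2 ± 1.20 against 51.0 ± 0.116, SD, n = 2 each). The log2 fold change was 0.35 ± 0.08 (limma adjusted p 0.0343), higher in 2 of 2 OXCT1mKO libraries than in either control. The size held in each alternative, from 0.32 to 0.45, but the call was lost without the variance trend (adjusted p 0.0504), with the replicate number as a block (0.0648), without control 1 (0.0517) and without OXCT1mKO 1 or OXCT1mKO 2 (0.225 and 0.176). Sf3a3 had 22.6 and 22.2 RPKM in OXCT1mKO, against 31.7 and 30.5 RPKM in control (-0.46 ± 0.08, adjusted p 0.0204). Its partners were not called: Sf3a2 (-0.27 ± 0.10) had 21.96 and 22.5 RPKM in OXCT1mKO and 25.4 and 28.7 RPKM in control. Sf3a1 (-0.20 ± 0.09) had 11.1 and 11.7 RPKM in OXCT1mKO and 13.5 and 13.0 RPKM in control. In both genes the OXCT1mKO libraries lay below the controls without overlap, as in 37.0% of all genes tested. Sf3b4 (-0.28 ± 0.09) had 23.8 and 26.0 RPKM in OXCT1mKO and 31.2 and 29.7 RPKM in control. Sf3b2 (-0.25 ± 0.10) had 56.8 and 52.3 RPKM in OXCT1mKO and 67.6 and 62.1 RPKM in control. Sf3b3 and Sf3b6, at -0.15 ± 0.12 and -0.20 ± 0.10, were not called either.

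Of 10 SR protein genes tested, 2 fell and 0 rose, with a median log2 fold change of -0.27. That count is near the 16.4% of all tested genes that fell. At an unadjusted limma p under 0.05 there were 5 of 10, beside 6000 of all 12523 genes tested. Srsf6 had 43.3 and 40.8 RPKM in OXCT1mKO, against 64.4 and 56.9 RPKM in control (-0.52 ± 0.10, limma adjusted p 0.0238). Srsf1, the founding member of the family, had 24.9 and 24.9 RPKM in OXCT1mKO, against 30.6 and 32.2 RPKM in control (-0.32 ± 0.08, adjusted p 0.0428). The Srsf1 call was lost without the filter on low genes (0.0530), with equal library sums (0.0881), without the variance trend (0.0612), with the replicate number as a block (0.0759) and without control 2 (0.0646). Srsf3, the smallest SR protein, had 50.2 and 42.7 RPKM in OXCT1mKO, against 59.9 and 60.3 RPKM in control. Its fold change of -0.37 ± 0.11 missed the threshold (adjusted p 0.0574) and passed with median-ratio scaling (0.0387). Srsf2, a splicing factor often mutated in myeloid disease, had 106 and 94.4 RPKM in OXCT1mKO, against 129 and 122 RPKM in control (-0.32 ± 0.10, adjusted p 0.0675). In Srsf2 and Srsf3 both OXCT1mKO libraries lay below both controls, as in 37.0% of all genes tested. Srsf5, Srsf9 and Srsf11 overlapped between groups. Srsf11 had 30.4 and 28.3 RPKM in OXCT1mKO and 30.4 and 28.2 RPKM in control (0.0035 ± 0.09). Its sign turned with median-ratio scaling, without OXCT1mKO 1 and without control 2. Srsf4 had 26.7 and 26.1 RPKM in OXCT1mKO and 26.0 and 24.2 RPKM in control (0.07 ± 0.09). Srsf5 had 126 and 109 RPKM in OXCT1mKO and 125 and 126 RPKM in control (-0.10 ± 0.11), the highest SR levels in either OXCT1mKO library. Srsf7, Srsf9 and Srsf10 lay between -0.26 and -0.28 and were not called.

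**Figure D3:**
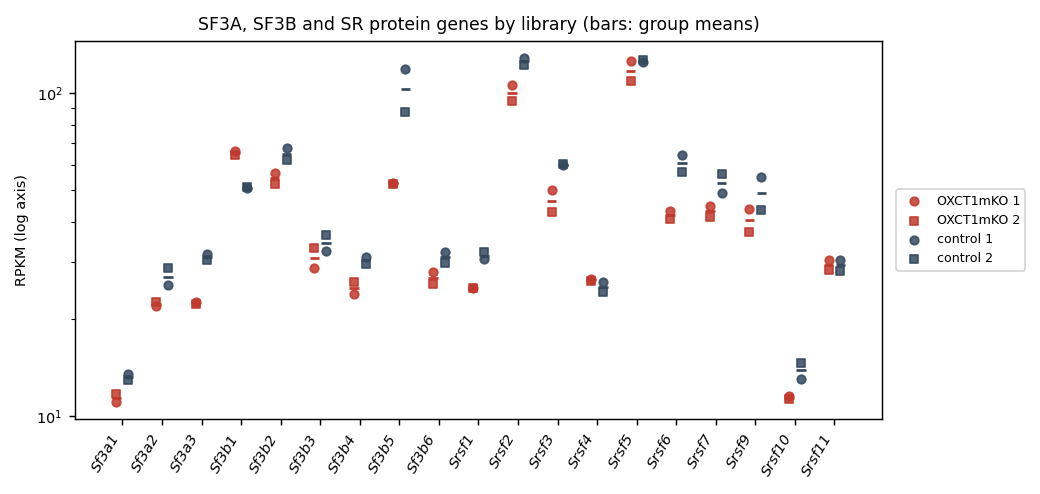
RPKM in each library (log axis) of the SF3A, SF3B and SR protein genes, with OXCT1mKO left of control for each gene and bars at the group means. Sf3b1 stands higher in OXCT1mKO (65.2 against 51.0 RPKM), Sf3b5 lower (52.6 against 103 RPKM), and Srsf11 level.

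Gene length went with the direction of change over the whole table. Genes were put in 4 groups of equal size by length. Summed exon length (GENCODE M21, GRCm38) had a median of 1976 bases for the tested Sm genes, 2785 for SF3A genes, 2923 for Lsm genes, 3068 for U1 and U2 genes, 4399 for SR genes and 5332 for SF3B genes. In the same order, the median log2 fold changes were -0.77, -0.27, -0.66, -0.67, -0.27 and -0.22. Lengths ran from 2658 to 6147 bases in SF3A genes and from 792 to 4199 bases in Lsm genes. Among genes outside the set, the shortest group (up to 2538 bases) had a median log2 fold change of -0.23 with 29.1% lower, and the longest group (over 6530 bases) had a median of 0.23 with 4.84% lower. In the shortest group 8 of 10 members fell, with a median of -0.73. In the second group 10 of 18 members fell with a median of -0.46, beside -0.09 and 19.6% lower for other genes. In the third group 3 of 4 members fell with a median of -0.42, beside 0.04 and 11.7%. In the longest group 0 of 6 members fell and Sf3b1 rose, and their median of -0.20 lay beside 0.23 for other genes. The members' median was below that of other genes in each length group, and both moved upward with length. The part of length in the fall of the members was not tested.

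**Figure D4:**
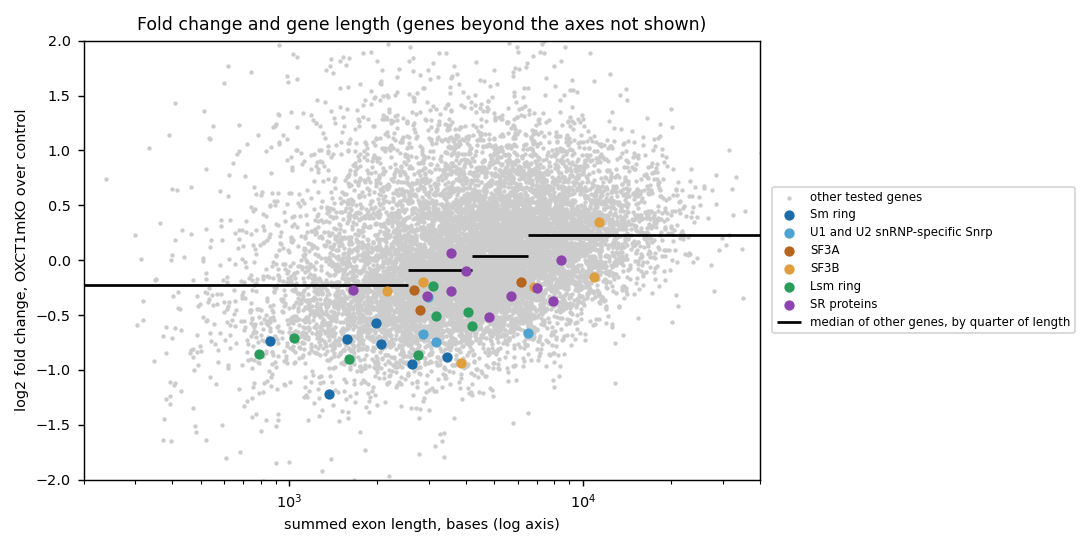
Log2 fold change of OXCT1mKO over control against summed exon length (log axis) for tested genes, with members coloured by part and black bars at the median of other genes in each length group. The black bars climb from -0.23 to 0.23, and Sf3b1 (0.35) is the longest member.

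The factors that build and accompany snRNPs also had downward calls. Of 19 snRNP assembly factors, 9 fell and 0 rose (median -0.43), among them Wdr77 (-0.66 ± 0.09), a cofactor of the methyltransferase that prepares Sm proteins, and Phax (-0.56 ± 0.09), the export adaptor of small nuclear RNA. Of 16 tri-snRNP genes, 5 fell and 0 rose (median -0.28), led by Snrnp27 (-0.54 ± 0.11) and Txnl4a (-0.37 ± 0.08). Of 17 U1, U2AF and minor spliceosome genes, 6 fell and 0 rose (median -0.26), led by Snrnp25 (-0.73 ± 0.10) of the minor spliceosome and U2af1 (-0.60 ± 0.11), which reads the 3′ splice site. Of 20 Prp19 complex and helicase genes, 3 fell and 0 rose (median -0.12), led by Bud31 (-0.71 ± 0.09) and Bcas2 (-0.62 ± 0.11). Over all genes tested 16.4% fell, and the Prp19 and helicase list, with 3 of 20, lies near that share; its median was -0.025 with equal library sums.

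Calls among regulators outside the snRNPs went in both directions. Over all genes tested 16.4% fell and 16.4% rose, and the counts of these small lists lie around those shares. Of 17 SR kinase and SR-related genes, 2 fell, among them Rnps1 (-0.45 ± 0.09), and Son, a large protein of nuclear speckles, rose (0.60 ± 0.09). That list's median of 0.07 turned to -0.017 without OXCT1mKO 1 and -0.025 without control 2. Of 24 hnRNP genes, which encode packaging proteins of nascent RNA, 6 fell and 2 rose (median -0.15), led by Hnrnpa1 (-0.49 ± 0.09) and Hnrnpab (-0.53 ± 0.10). Of 10 nonsense-mediated decay genes, 2 fell, with Upf3a at -0.45 ± 0.12, and the kinase gene Smg1 rose (0.67 ± 0.09), the median being -0.20. Of 10 partners of the cytoplasmic Lsm ring in mRNA decay, 3 rose, among them the decapping activator Dcp1a (0.47 ± 0.11), and Edc3 fell (-0.40 ± 0.09), with a median of 0.23. With a minimum mean of 5 RPKM, which leaves out Dcp1a, Dcp1b, Dcp2 and Xrn1, the list's median was 0.053.

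Other lists moved with the spliceosome genes. Their counts stand beside 16.4% lower and 16.4% higher among all genes tested. Of 23 proliferation genes 19 fell and 0 rose, with a median of -0.62 and summed levels of 323 and 329 RPKM in OXCT1mKO, against 549 and 487 RPKM in control. Aurka (-1.04 ± 0.09) and Plk1 (-1.05 ± 0.12), kinases of mitosis, had the smallest p. Cytosolic ribosomal protein genes, 72 of 83 lower and 0 higher, had a median of -0.76. T cell markers (6 of 11 lower) summed to 67.0 and 115 RPKM in OXCT1mKO, against 288 and 197 RPKM in control. Hepatoma markers (2 of 4 lower) summed to 40.0 and 46.9 RPKM in OXCT1mKO, against 144 and 116 RPKM in control. Pancreatic acinar markers (5 of 5 lower) summed to 3.68 and 3.29 RPKM in OXCT1mKO, against 37.1 and 22.7 RPKM in control. The summed levels of these 3 lists were lower in both OXCT1mKO libraries than in either control, and those of resident liver macrophages were higher. Kupffer cell markers (7 of 8 higher) summed to 466 and 279 RPKM in OXCT1mKO, against 35.7 and 39.3 RPKM in control. Of the endothelial markers 5 of 7 were higher. Of the macrophage markers 6 of 12 were higher and Lyz2 was lower. In 8 of the 12 both OXCT1mKO libraries lay above both controls, as in 37.6% of all genes tested, and in 1 below. The summed levels overlapped between groups with Lyz2 counted. Lyz2 alone had 8.76 and 6.52 RPKM in OXCT1mKO, against 688 and 744 RPKM in control. Hepatocyte markers were mixed, with 3 of 8 higher and 1 lower. Neutrophil markers (1 of 8 lower) summed to 589 and 407 RPKM in OXCT1mKO and to 171 and 1332 RPKM in control. The epithelial, B cell and erythroid lists had 0 calls in limma, and 1, 0 and 0 genes with an unadjusted p below 0.05. B cell markers summed to 69.3 and 86.0 RPKM in OXCT1mKO and 19.9 and 149 RPKM in control, and erythroid markers to 330 and 309 RPKM in OXCT1mKO and 24384 and 846 RPKM in control. No marker was at 0 in all 4 libraries. The part of proliferation, of other cells and of gene length in the fall of the spliceosome genes was not tested.

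**Figure D5:**
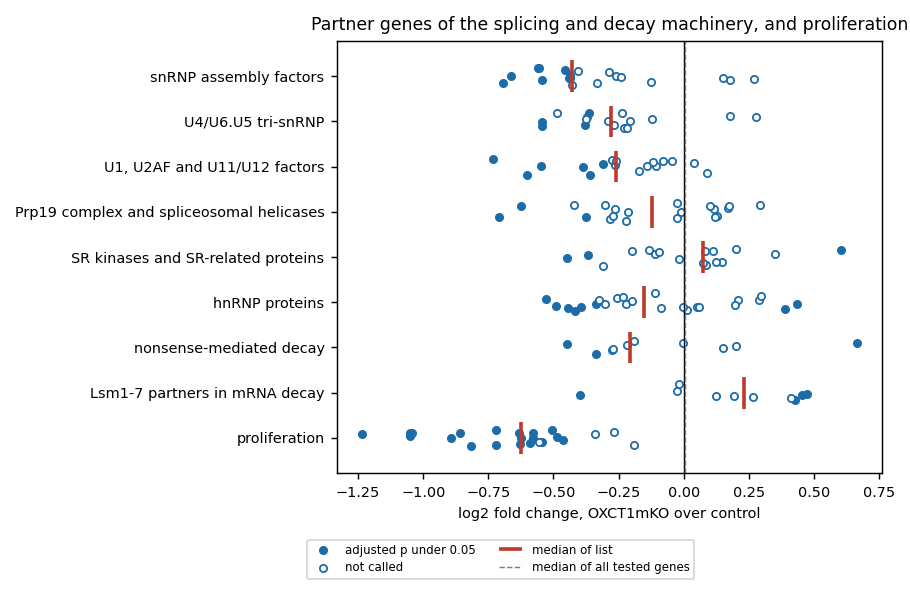
Log2 fold change of OXCT1mKO over control for genes of 9 partner lists, filled where the limma adjusted p was under 0.05, with a red bar at each list's median. The medians of proliferation genes (-0.62) and snRNP assembly factors (-0.43) lie furthest left, and that of the partners of the cytoplasmic Lsm ring (0.23) lies furthest right.

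Some levels carry an uncertainty of read assignment, since the sources used here name neither the counter nor its strand setting. In 7 members over 10% of the 50-base words of their annotated transcripts also occur in transcripts of other genes. The share was 43.6% for Sf3b4, whose copy is Gm7935, 21.7% for Snrpn, which shares its locus with Snurf, 21.3% for Snrpf, 21.0% for Lsm5, 14.3% for Lsm7, 11.3% for Snrpg and 10.1% for Srsf5. It was 6.26% for Snrpd2 and 0.443% for Sf3b1, and 10 members shared none. Exons of 11 members overlap those of a gene on the opposite strand, among them Snrpd3 with Gucd1, Snrpf with Ccdc38, and Srsf2 with Mfsd11. Of the 40 members, 0 had values identical to another row of the table.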

How the data were processed

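RPKM values for 4 libraries, listed by gene symbol, are what the authors deposited. Build mm10, STAR 2.10 and R 4.0.5 are named in the submitters' processing notes. The sources used here give neither the roles of these tools nor the counter, its strand setting or the gene lengths. The labels' protocol text names a microarray, whereas the series is sequencing. Libraries were assigned to groups and numbers by title.

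A count model does not suit RPKM and none was run. Ratios of values up to 0.05 RPKM peaked, within 0.1%, at relative depths of 0.967 and 0.911 for OXCT1mKO 1 and 2 and 1.03 for control 2, with control 1 set to 1; absolute depth is unknown and no count interval is given. Of 24784 genes, 19514 were above 0. Genes with a mean of at least 1 RPKM were tested on log2(RPKM + 1), on which fold changes of low genes are understated, in limma 3.58.1 under R 4.3.3, with group as the single term, trended moderated variances, two-sided tests and Benjamini-Hochberg adjustment over all 12523 genes. A permutation test of 2 libraries against 2 cannot go below p = 0.333. Gene lists are described by counts and medians with no test of the list.

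Members and lists were chosen with earlier results of these data known. Values by library are given for the 4 members of each part with the smallest p, and for other members named by choice. For each partner list, fold changes are given for the 2 genes with the smallest p. Lengths, overlaps and shared 50-base words came from GENCODE M21 (GRCm38, also called mm10), where 97.8% of symbols and 40 of 40 members had a length; 12334 tested genes entered the length groups. One symbol of the partner lists (Nhp2l1) and one marker (Trac) had no row. Alternatives were another pseudocount (0.1), other filters, 2 scalings, no variance trend, the replicate number as a block and each library left out. The 2 scalings were equal library sums, with globin genes left out of the sums, and median ratios.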

Additional observations from a re-analysis of the deposited data

How the results depend on the processing

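The members' median log2 fold change was negative in each alternative run. It was -0.50 with a pseudocount of 0.1, -0.41 without a filter on low genes (1191 genes higher and 1149 lower over the table, as more genes were tested), -0.37 with equal library sums, -0.49 with median-ratio scaling and -0.47 to -0.44 with 1 library left out. Equal sums gave medians of -0.67 (Sm), -0.57 (U1 and U2), -0.17 (SF3A), -0.13 (SF3B), -0.56 (Lsm), -0.18 (SR), -0.34 (assembly), -0.19 (tri-snRNP), -0.17 (U1, U2AF and minor), -0.025 (Prp19), 0.17 (SR kinases), -0.055 (hnRNP), -0.12 (nonsense-mediated decay), 0.31 (Lsm partners) and -0.53 (proliferation). Median-ratio scaling gave -0.45 (assembly), -0.31 (tri-snRNP), -0.29 (U1, U2AF and minor), -0.15 (Prp19), 0.042 (SR kinases), -0.23 (nonsense-mediated decay) and 0.20 (Lsm partners). The pseudocount of 0.1 gave -0.47 (assembly), -0.30 (tri-snRNP), -0.27 (U1, U2AF and minor), -0.23 (nonsense-mediated decay) and 0.27 (Lsm partners). A minimum mean of 5 RPKM gave -0.60 (Lsm), -0.21 (Prp19) and 0.053 (Lsm partners). With 1 library left out, medians ran from -0.87 to -0.73 (Sm), -0.73 to -0.59 (U1 and U2), -0.36 to -0.23 (SF3A), -0.28 to -0.21 (SF3B), -0.73 to -0.57 (Lsm), -0.44 to -0.40 (assembly), -0.32 to -0.26 (tri-snRNP), -0.27 to -0.22 (U1, U2AF and minor), -0.15 to -0.084 (Prp19), -0.025 to 0.069 (SR kinases), -0.20 to -0.084 (hnRNP), -0.20 to -0.14 (nonsense-mediated decay) and -0.72 to -0.51 (proliferation). Without OXCT1mKO 1, OXCT1mKO 2, control 1 and control 2, 0, 0, 21 and 19 members fell and 0, 0, 0 and 1 rose, and 0 to 2362 genes were higher and 1 to 2056 lower over the table. The SR kinase median was -0.017 without OXCT1mKO 1 and -0.025 without control 2. Srsf11 turned to -0.028 with median-ratio scaling, -0.047 without OXCT1mKO 1 and -0.048 without control 2, and Srsf5 to 0.0010 without OXCT1mKO 2; neither was called. Sf3b1 was the 1 riser, and 0 members rose without the variance trend or with the replicate block. The labels give no sign that equal numbers pair libraries, and deviations of same-numbered libraries correlated at 0.055 across 12523 genes. With the replicate block 20 members and 1735 of all genes fell, against 21 and 2052 without it. The cause of these shifts was not tested. Read depth is unknown, which limits the lowest members such as Snrpn and Srsf12.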
